A study of Rattus norvegicus with 48 samples.

Results

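The genes described here are Per1, Per2, Per3 and Cry1, the core repressors of the circadian clock, in the fat of adolescent rats. They were taken by Ensembl ID (Per1 ENSRNOG00000007387, Per2 ENSRNOG00000020254, Per3 ENSRNOG00000018413 and Cry1 ENSRNOG00000006622) and are 4 of the 23481 genes in the count table, which itself gives no symbols. PolyA-selected RNA was sequenced from visceral adipose tissue (VAT) and subcutaneous adipose tissue (SAT) of 24 male rats, 6 in each of 4 groups, giving 48 libraries, and different rats were taken at each phase. The groups were late active phase exercise (LAE), late active phase control (LAC), early active phase exercise (EAE) and early active phase control (EAC). The early phase was zeitgeber time 13 and the late phase zeitgeber time 23, in hours after lights on. Tissue was taken on postnatal day 61, at 24 h after the last exercise session. The hour of exercise thus also differed between LAE and EAE. In comparisons of these groups it cannot be told apart from the hour of sampling. The control rats were sedentary. The labels used here name neither the strain nor the type of exercise.

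In the mammalian clock, the transcription factors BMAL1 and CLOCK bind E-box sequences and switch on the Per and Cry genes. The PER and CRY proteins then accumulate, enter the nucleus and repress BMAL1 and CLOCK, which closes a loop of about a day. Per1, Per2 and Per3 transcripts usually rise and fall close together in peripheral tissues such as fat, whereas Cry1 peaks later, because its gene also carries elements read by the REV-ERB and ROR receptors. Per1 and Per2 also respond directly to signals such as glucocorticoids and cAMP.

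All members passed the filter on low counts in both depots, and the lowest count of any member in any library was 117, for Per3. Library totals lay between 13163675 and 17890033 estimated counts. Levels are in CPM, the counts relative to the scaled size of each of the 48 libraries (TMM scaling of edgeR); they are not divided by transcript length, so they are compared between groups and not between genes. Of the libraries, 4 stood apart from the others of their depot in rank correlation over all genes, namely SAT LAE replicates 4 and 6, VAT EAE replicate 3 and VAT EAC replicate 5. The phase changes, the correlations between depots and those of deviations between members are also given without them. Markers of adipocytes and of other cell types could not be read, since the IDs were not paired with symbols, so the depots were not checked against their labels and the part of cell makeup in these results was not tested. In whole tissue, fewer cells that express a gene and less RNA per cell cannot be told apart.

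Per1, Per2 and Per3 were 2.92-fold to 12.15-fold lower late in the active phase than early in it, in both depots and with or without exercise, and Cry1 was higher late in VAT. Each of the 4 phase comparisons was fitted over all genes with edgeR's quasi-likelihood test and called at a Benjamini-Hochberg adjusted p under 0.05. Per1, Per2 and Per3 were called lower in all 4 of them. By the same rule 1.69% of all genes tested were lower in sedentary SAT, 7.51% in exercised SAT, 5.96% in sedentary VAT and 10.8% in exercised VAT. Cry1 was called higher in both VAT comparisons, where 5.39% of genes in sedentary and 10.3% in exercised rats were higher, and in neither SAT comparison, where 1.53% and 9.83% were. In both directions together the shares called were 3.22% and 17.3% in SAT and 11.3% and 21% in VAT, for sedentary and for exercised rats.

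The late and early libraries of Per1, Per2 and Per3 did not overlap in any of the 4 comparisons. Genes with every late library below every early one made up 2.74% in sedentary SAT, 2.38% in exercised SAT, 2.66% in sedentary VAT and 3.41% in exercised VAT. Every late library lay above every early one for Cry1 in both VAT comparisons, where this held for 3.4% of genes in sedentary and 4.6% in exercised rats, and for Cry1 in neither SAT comparison (3.47% and 1.36% of genes).

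**Figure D1:**
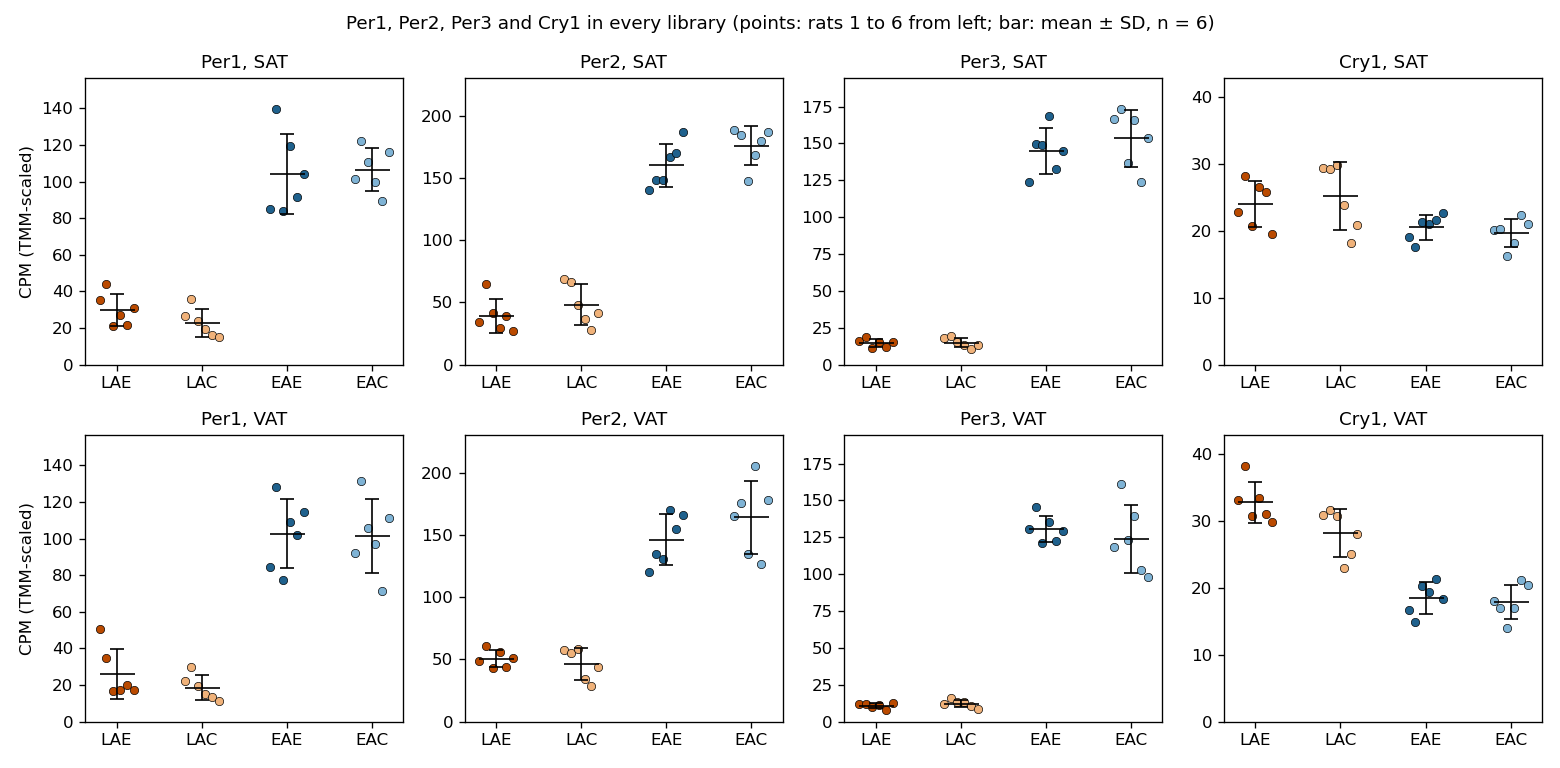
Levels of the 4 genes in every library, in CPM on an axis from 0, by group (LAE, LAC, EAE, EAC), with SAT in the upper row and VAT in the lower row; points are rats, and bars are the mean ± SD of 6 rats. In both depots the late groups of Per1, Per2 and Per3 lie below every early library, while for Cry1 the late libraries lie above the early ones of the same activity in VAT and overlap them in SAT.

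Per3, the member of the family that is least needed for rhythm in mice, had the largest difference between the phases of the 4 genes. In sedentary SAT it lay between 10.5 and 19.2 CPM (median 14.3) in LAC and between 124 and 173 CPM (median 159.9) in EAC. In exercised SAT it lay between 11.3 and 18.6 CPM (median 15.4) in LAE and between 124 and 169 CPM (median 146.9) in EAE. Every late library was thus far below every early one, with or without exercise. The fitted change in sedentary SAT was a 10.25-fold fall (log2 -3.36 ± 0.14 SE, adjusted p = 3.783e-13, edgeR), and in exercised SAT a 9.82-fold fall (log2 -3.30 ± 0.14 SE, adjusted p = 5.468e-13, edgeR). By p-value Per3 ranked 1 of the 14372 genes tested in both of these SAT comparisons.

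Per3 in VAT gave the same picture at slightly lower levels. It lay between 8.2 and 15.9 CPM (median 12.6) in LAC and between 98.3 and 161 CPM (median 121.0) in EAC. In exercised rats it lay between 8.12 and 12.5 CPM (median 11.6) in LAE and between 121 and 146 CPM (median 130.0) in EAE. The falls were 10.19-fold in sedentary rats (log2 -3.35 ± 0.14 SE, adjusted p = 5.145e-14, edgeR) and 12.15-fold in exercised rats (log2 -3.60 ± 0.14 SE, adjusted p = 1.478e-14, edgeR). Per3 ranked 2 of 13883 genes by p-value in either VAT comparison. The order of the 8 group means was SAT EAC (153 ± 19.3 CPM), SAT EAE (145 ± 15.4), VAT EAE (131 ± 8.94), VAT EAC (124 ± 23.3), SAT LAC (14.9 ± 3.22), SAT LAE (14.7 ± 2.79), VAT LAC (12.2 ± 2.6) and VAT LAE (10.8 ± 1.66; SD, n = 6). Neighbours in this order differed by less than the larger of their SDs, except across the step from early to late.

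Per1, which is also an immediate early gene of the clock, fell at the late phase in all 4 comparisons. In sedentary SAT it lay between 14.9 and 35.7 CPM (median 21.5) in LAC and between 89.5 and 122 CPM (median 106.0) in EAC, a 4.68-fold fall (log2 -2.23 ± 0.20 SE, adjusted p = 1.792e-07, edgeR). In exercised SAT the range was 21.3 to 44.1 CPM in LAE and 84.0 to 140 CPM in EAE, a 3.46-fold fall (log2 -1.79 ± 0.20 SE, adjusted p = 3.721e-06, edgeR). No late library reached the lowest early library. In VAT Per1 lay between 11.2 and 29.7 CPM in LAC and between 71.4 and 132 CPM in EAC, a 5.52-fold fall (log2 -2.47 ± 0.26 SE, adjusted p = 6.458e-07, edgeR). In exercised rats it lay between 16.6 and 50.7 CPM in LAE and between 77.5 and 128 CPM in EAE, a 3.99-fold fall (log2 -1.996 ± 0.26 SE, adjusted p = 7.033e-06, edgeR).

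The late groups of Per1 were uneven, and in VAT more so than those of the other members. Their coefficients of variation were 53.5% in VAT LAE, 36.7% in VAT LAC, 29.2% in SAT LAE and 34.2% in SAT LAC, against 18.5%, 19.8%, 21.1% and 11.2% in VAT EAE, VAT EAC, SAT EAE and SAT EAC. In VAT LAE a pair of rats, replicates 1 and 2, had 50.7 and 34.5 CPM, and the other 4 had 16.6 to 19.8 CPM. The SAT LAE libraries with these numbers had the highest Per1 levels of that group, at 35.1 and 44.1 CPM. The early group means of Per1 differed by less than their SDs, from SAT EAC (107 ± 11.9 CPM) through SAT EAE (104 ± 22.0) and VAT EAE (103 ± 19.0) to VAT EAC (101 ± 20.1). The late means ran from SAT LAE (30.0 ± 8.77 CPM) through VAT LAE (26.0 ± 13.9) and SAT LAC (22.7 ± 7.78) to VAT LAC (18.5 ± 6.78; SD, n = 6), and here too neighbours differed by less than the larger of their SDs.

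Per2, which in mice is needed for a stable rhythm, fell at the late phase in all 4 comparisons, by less than Per3. In sedentary SAT it lay between 27.4 and 69.1 CPM (median 44.8) in LAC and between 147 and 188 CPM (median 182.4) in EAC, a 3.65-fold fall (log2 -1.87 ± 0.20 SE, adjusted p = 2.458e-06, edgeR). In exercised SAT it lay between 26.7 and 64.8 CPM in LAE and between 141 and 187 CPM in EAE, a 4.08-fold fall (log2 -2.03 ± 0.20 SE, adjusted p = 8.628e-07, edgeR). In VAT the ranges were 29.0 to 58.5 CPM in LAC and 126 to 206 CPM in EAC, a 3.57-fold fall (log2 -1.84 ± 0.16 SE, adjusted p = 1.769e-08, edgeR). In exercised VAT they were 43.0 to 61 CPM in LAE and 120 to 170 CPM in EAE, a 2.92-fold fall (log2 -1.54 ± 0.16 SE, adjusted p = 1.962e-07, edgeR). Early and late libraries again did not overlap. The group means of Per2 were 176 ± 15.8 CPM in SAT EAC, 164 ± 29.4 in VAT EAC, 160 ± 17.4 in SAT EAE, 146 ± 20.5 in VAT EAE, 50.5 ± 6.93 in VAT LAE, 48.2 ± 16.6 in SAT LAC, 46.4 ± 12.7 in VAT LAC and 39.2 ± 13.7 in SAT LAE (SD, n = 6), with neighbours closer than the larger of their SDs except across the step between phases.

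The promoter of Per2 is shown because its window holds 2 of the clock motifs searched. RefSeq windows of the 250 bases before the transcript start were searched (build GRCr8, whereas the counts were made on rn6). The 174 bases printed, chr9:99497070-99497243 on the minus strand, are those of the Per2 window that lie upstream of every annotated start of the gene, and the capitals mark a D-box, read by DBP and its relatives.
Per2: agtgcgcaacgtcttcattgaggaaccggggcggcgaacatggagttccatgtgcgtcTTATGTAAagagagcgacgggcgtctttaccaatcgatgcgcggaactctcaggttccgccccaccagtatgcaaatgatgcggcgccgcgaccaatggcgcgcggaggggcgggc
The motifs searched, on both strands, were the E-box CACGTG, the non-canonical E-box CACGTT, the D-box TTATGTAA and the cAMP element TGACGTCA. In Per2 the D-box starts 192 bases before the transcript start and the non-canonical E-box 62 bases before it, and they do not overlap. The non-canonical E-box lies outside the printed stretch, downstream of the farthest annotated start of the gene. E-boxes are read by BMAL1 and CLOCK. Among 33469 rat promoter windows of this length, 0.828% held this D-box, 4.07% the non-canonical E-box, 5.59% the E-box and 1.59% the cAMP element. The windows of Per1 and Per3 held none of the 4; both lie inside the annotated span of their gene, downstream of its farthest annotated start. A Cry1 window was not used here. A match describes letters in a sequence and shows no binding in these tissues.

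Cry1, which encodes the strongest repressor of BMAL1 and CLOCK among the CRY proteins in mice, went the other way in VAT. There it lay between 22.9 and 31.7 CPM (median 29.4) in LAC and between 14.1 and 21.1 CPM (median 17.6) in EAC. In exercised VAT it lay between 29.9 and 38.2 CPM (median 32.2) in LAE and between 14.9 and 21.4 CPM (median 18.9) in EAE. All late VAT libraries were above all early ones of the same activity, a 1.56-fold rise in sedentary rats (log2 0.64 ± 0.10 SE, adjusted p = 0.00018, edgeR) and a 1.755-fold rise in exercised rats (log2 0.81 ± 0.10 SE, adjusted p = 6.277e-06, edgeR).

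Cry1 in SAT did not pass the threshold. It lay between 18.1 and 29.9 CPM (median 26.6) in LAC and between 16.3 and 22.3 CPM (median 20.2) in EAC, a log2 change of 0.36 ± 0.12 (SE, 95% interval 0.11 to 0.61, adjusted p = 0.1141, edgeR). In exercised SAT it lay between 19.5 and 28.2 CPM (median 24.3) in LAE and between 17.6 and 22.8 CPM (median 21.2) in EAE, a log2 change of 0.22 ± 0.12 (SE, 95% interval -0.02 to 0.47, adjusted p = 0.1933, edgeR). In either case 4 of the 6 late libraries lay above all early ones and the other 2 lay among them. The sedentary call depended on 1 library and on the tool. Without SAT LAC replicate 5 the adjusted p was 0.04072 with edgeR, and limma voom with sample weights gave 0.003681. The highest group means of Cry1 were those of VAT LAE (32.8 ± 3.02 CPM) and VAT LAC (28.3 ± 3.56), followed by SAT LAC (25.2 ± 5.03) and SAT LAE (24.0 ± 3.45). The early means followed at 20.6 ± 1.88 CPM in SAT EAE, 19.7 ± 2.15 in SAT EAC, 18.5 ± 2.4 in VAT EAE and 18.0 ± 2.56 in VAT EAC (SD, n = 6). Here the neighbours VAT LAE and VAT LAC differed by more than either SD, and all other neighbours by less than the larger of their SDs.

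The phase calls of the Per genes were kept in every fit that left out 1 library of the compared groups. Without the 4 libraries that stood apart, the log2 changes in exercised SAT were -3.33 for Per3, -1.77 for Per1, -1.84 for Per2 and 0.25 for Cry1. In VAT they were then -3.39, -2.54, -1.89 and 0.70 for Per3, Per1, Per2 and Cry1 in sedentary rats, and -3.63, -2.07, -1.58 and 0.84 in exercised rats. The share of all genes called in SAT depended on the fit, since 1671 genes in sedentary rats and 383 in exercised rats were called from the 2 compared groups alone, against 463 and 2492 in the fit of all 4 SAT groups. The members kept their calls and directions in the fits of the compared groups alone.

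**Figure D2:**
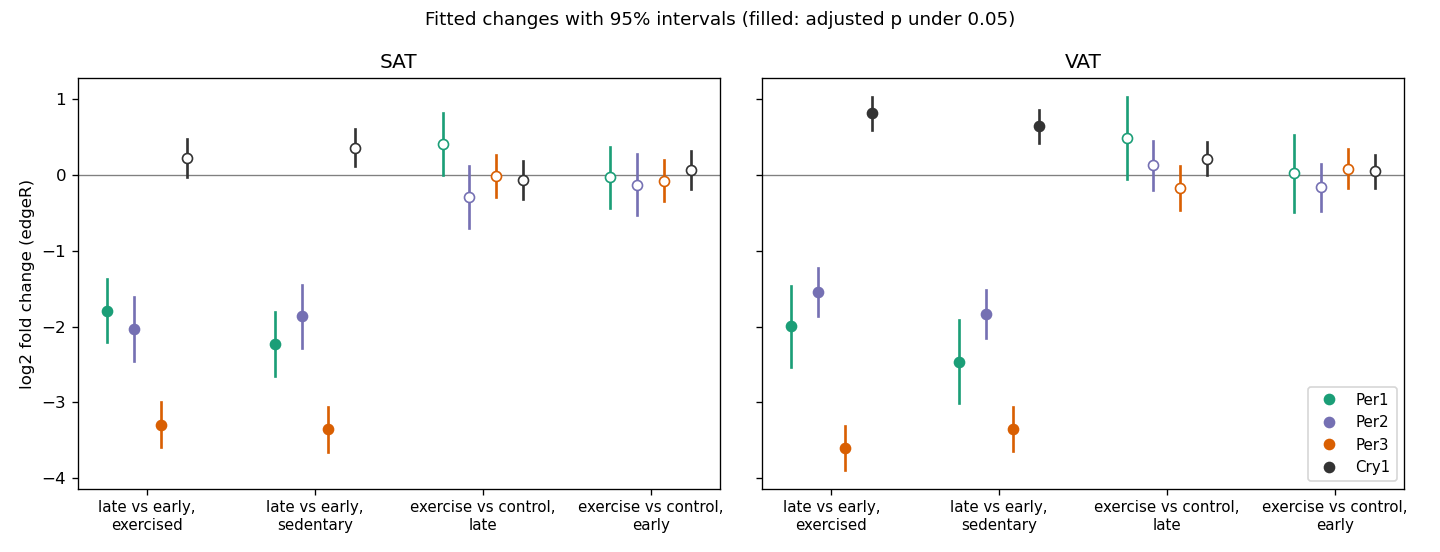
Fitted log2 fold changes of the 4 genes (y axis) in SAT (left) and VAT (right) for late against early rats and for exercised against control rats; points are edgeR estimates, lines are 95% intervals, and filled points have an adjusted p under 0.05. The phase changes of Per3 lie between -3.60 and -3.30, those of Per1 and Per2 between -2.47 and -1.54, and all intervals for Per1, Per2 and Per3 between exercised and control rats include 0.

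The members did not fall by the same factor. The ratio of 2 genes within a library does not depend on how libraries are scaled, and its change between phases was tested with an exact permutation test over rats, two-sided, for which 0.00216 is the smallest p that 6 against 6 allows. In all, 24 such ratio tests were made, and the Benjamini-Hochberg adjusted value over them is 0.00324 for each raw p of 0.00216. Most of the 24 reached this smallest p, so the adjustment weighed little on the others. The log2 ratio of Cry1 to Per3 counts lay between 0.608 and 0.976 in SAT LAC and between -3.19 and -2.47 in SAT EAC. In VAT it lay between 0.786 and 1.78 in LAC and between -3.24 and -2.27 in EAC. Cry1 thus rose 13.2-fold relative to Per3 in sedentary SAT and 16.1-fold in sedentary VAT, and 11.5-fold in exercised SAT and 21.6-fold in exercised VAT (exact permutation p = 0.00216 in each). This log2 ratio was 0.366 or above in each of the 24 late libraries, those that stood apart included. It was -2.27 or below in each of the 24 early libraries. Transcripts differ in length, so only the change of the ratio between phases is read, and not its sign.

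Relative to Per2, Cry1 rose 4.84-fold in sedentary SAT and 5.71-fold in sedentary VAT, and 4.93-fold and 5.15-fold in exercised rats, with no overlap between phases (exact permutation p = 0.00216 in each). The ratio of Per3 to Per2, chosen for testing after its values were seen, was 2.72-fold lower late than early in sedentary SAT, 2.82-fold in sedentary VAT, 2.34-fold in exercised SAT and 4.21-fold in exercised VAT. The ratio of Per3 to Per1, chosen likewise, was 2.13-fold, 1.79-fold, 2.83-fold and 2.83-fold lower in sedentary SAT, sedentary VAT, exercised SAT and exercised VAT (exact permutation p = 0.00216 for each of these 8). Per3 therefore fell by more than either of the other Per genes in both depots and under both activities.

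Per1 fell by more than Per2 in sedentary rats. In sedentary VAT the ratio of Per1 to Per2 was 1.57-fold lower in LAC than in EAC (mean log2 ratio -1.36 ± 0.374 in LAC and -0.701 ± 0.277 in EAC, SD, n = 6, exact permutation p = 0.00433, adjusted 0.00611). In sedentary SAT it was 1.28-fold lower (-1.08 ± 0.284 in LAC and -0.726 ± 0.212 in EAC, SD, n = 6, exact permutation p = 0.0281, adjusted 0.0355). The SAT difference lost the 0.05 threshold when any of 6 libraries was left out, with exact permutation p up to 0.0736. In exercised rats the difference was not past 0.05 in VAT (exact permutation p = 0.0671, adjusted 0.0805) or in SAT (exact permutation p = 0.284, adjusted 0.31), although without VAT LAE replicate 1 the VAT value was a log2 difference of -0.80 (exact permutation p = 0.00216). These groups overlapped in both depots.

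**Figure D3:**
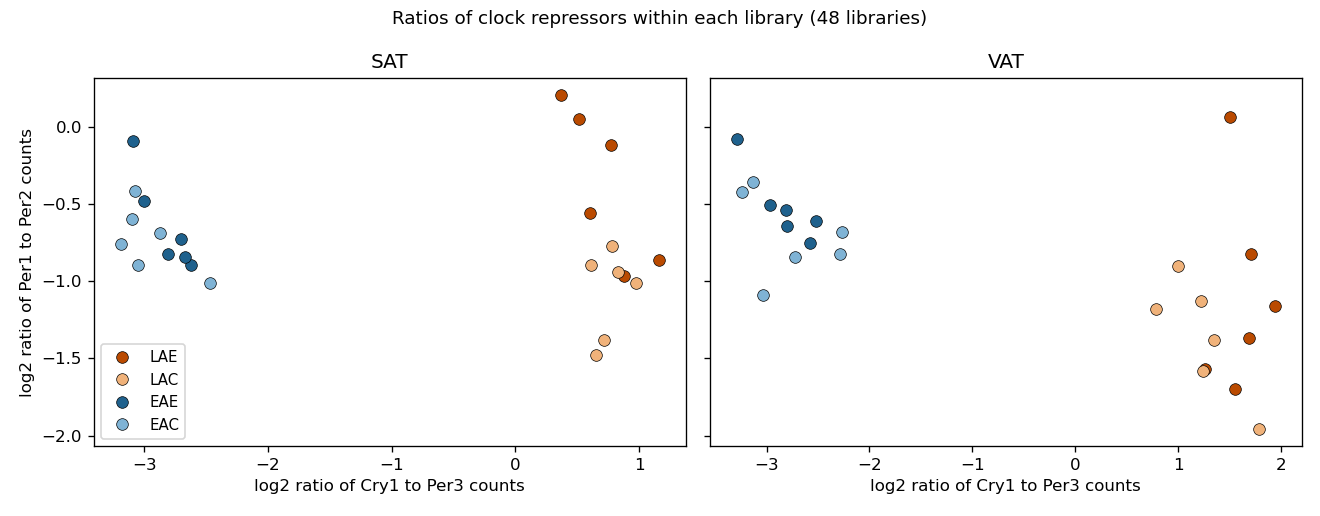
Log2 ratio of Per1 to Per2 counts (y axis) against log2 ratio of Cry1 to Per3 counts (x axis) in each SAT library (left) and VAT library (right), coloured by group; each point is 1 library. Late libraries lie at 0.366 or above on the x axis and early libraries at -2.27 or below, while on the y axis the groups overlap.

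The phase change of Cry1 differed between the depots. Late against early, averaged over sedentary and exercised rats, it was larger in VAT than in SAT by 0.44 ± 0.11 on the log2 scale (SE, 95% interval 0.22 to 0.67, adjusted p = 0.01319, edgeR), where 2.29% of all genes tested were called with a larger value in VAT and 6.83% in either direction. SAT and VAT libraries of equal number were taken as the same rat, which the labels do not state. At the late phase 11 of 12 rats had more Cry1 in VAT than in SAT, and at the early phase 0 of 12 did. With the rat (libraries of the same replicate number) as a block the difference was 0.46 ± 0.07 (SE, adjusted p = 0.001427, edgeR), and without the libraries that stood apart it was 0.48 ± 0.11 (SE, adjusted p = 0.01351, edgeR). For the Per genes the same test did not pass, with differences of -0.21 for Per1 (95% interval -0.69 to 0.26), 0.26 for Per2 (-0.10 to 0.63) and -0.14 for Per3 (-0.42 to 0.13).

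Averaged over the 4 groups, Per3 was lower in VAT than in SAT, by 1.23-fold (log2 -0.30 ± 0.07 SE, adjusted p = 0.0001892, edgeR), and by -0.28 on the log2 scale without the libraries that stood apart. It was lower in VAT in 11 of 12 late and 11 of 12 early rats. Depot differences were common, with 60.3% of all genes called and 32.5% called lower in VAT. Per1 (log2 -0.16 ± 0.12 SE, adjusted p = 0.2578, edgeR), Per2 (0.01 ± 0.09, adjusted p = 0.903) and Cry1 (0.08 ± 0.06, adjusted p = 0.2425) did not pass in this fit. With the rat as a block, Per1 (-0.18 ± 0.05 SE, adjusted p = 0.004628, edgeR) and Cry1 (0.08 ± 0.03 SE, adjusted p = 0.04385, edgeR) also passed. For Cry1 this average joins opposite directions, lower in VAT in 12 of 12 early rats and higher in 11 of 12 late rats.

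Deviations of the members were similar in the SAT and VAT libraries that had the same group and number. The labels number 6 rats a group in both depots, and equal numbers were taken as the same rat, which the labels do not state. After the group mean was taken from each log2 level, the SAT and VAT values of the same rat correlated over 24 rats at r = 0.829 for Per1 (Spearman 0.857), 0.727 for Cry1 (0.739), 0.635 for Per3 (0.664) and 0.628 for Per2 (0.54). The median over the 13755 genes tested in both depots was 0.119, and with all 24 rats 98% or more of those genes had a lower r than each member. These values are descriptions, and both values of a pair were taken to come from 1 rat. Replicate 2 had the highest Per1 of its group in every group but VAT LAE, though within a depot these are different rats. Per1 levels of replicate 2 were 122, 140, 35.7 and 44.1 CPM in SAT EAC, EAE, LAC and LAE. In VAT EAC, EAE and LAC they were 132, 128 and 29.7 CPM. Per3 was also highest in replicate 2 in most groups. Whether r comes from the rat or from something shared by replicate number was not tested. Without the 4 rats whose libraries stood apart, and with group means taken anew, r was 0.897 for Per1, 0.716 for Cry1, 0.612 for Per3 and 0.815 for Per2. The median over all genes was then 0.172, and 99.8%, 97.5%, 94% and 99.1% of genes lay below Per1, Cry1, Per3 and Per2. Without the 2 rats farthest out in SAT, r was 0.777, 0.735, 0.637 and 0.474 for Per1, Cry1, Per3 and Per2. Those rats were picked for each gene, and the group means still included them. For Per1 the 6 LAC rats stood in the same order in both depots, the VAT levels being 22.0, 29.7, 19.6, 15.1, 13.3 and 11.2 CPM and the SAT levels 26.5, 35.7, 23.8, 19.2, 16.1 and 14.9 CPM. For Per2 the Spearman correlation over 6 rats was -0.0857 in LAE, 0.829 in LAC, 0.812 in EAE and 0.143 in EAC.

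**Figure D4:**
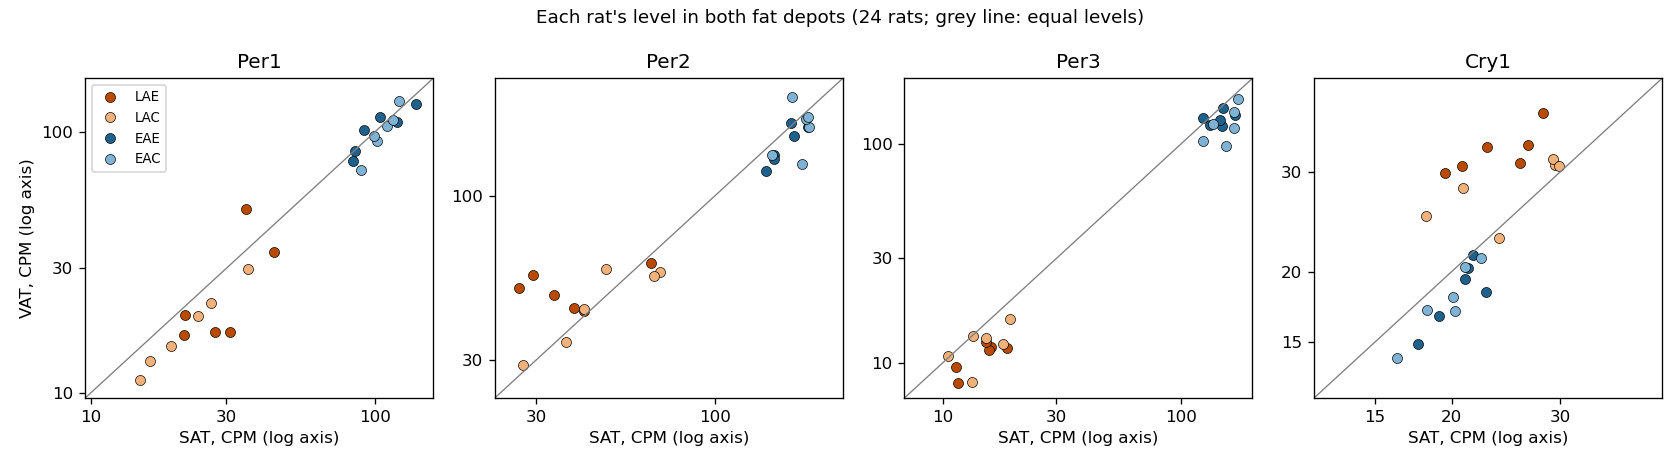
Level of each gene in VAT (y axis) against SAT (x axis), in CPM on log axes, for 24 rats coloured by group. Libraries of equal number were taken as the same rat, and the grey line marks equal levels. Cry1 lies above the line in 11 of 12 late rats and below it in 12 of 12 early rats, and Per1 spreads along the line within the late and the early rats.

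Within a depot, most pairs of members also deviated in the same direction from rat to rat. Over the 24 SAT libraries, deviations of Per1 and Per3 correlated at r = 0.827, those of Per2 and Cry1 at 0.721, and those of Per1 and Cry1 at 0.39, the lowest of the 6 pairs. In VAT the r of these pairs was 0.543, 0.509 and 0.154, and that of Per3 and Cry1 was -0.129. Without the libraries that stood apart, r of Per1 and Per3, Per2 and Cry1, and Per1 and Cry1 was 0.838, 0.775 and 0.448 in SAT and 0.52, 0.717 and 0.317 in VAT, where that of Per3 and Cry1 was -0.05. These deviations were still taken from group means that included the libraries left out. All values of a library share its scaling. The r of other gene pairs was not computed as a background, so these values are not read as particular to the members. In VAT Cry1 was higher at the phase at which the Per genes were lower, whereas among rats of 1 group the deviations of Per2 and Cry1 had a positive r.

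Exercise changed none of the members past the threshold at either phase, in either depot. At the late phase Per1 lay between 21.3 and 44.1 CPM (median 29.1) in SAT LAE and between 14.9 and 35.7 CPM (median 21.5) in SAT LAC, a log2 change of 0.41 ± 0.20 (SE, 95% interval -0.001 to 0.81, adjusted p = 0.1641, edgeR). In VAT its late medians were 18.5 CPM in LAE and 17.4 CPM in LAC, with a log2 change of 0.49 ± 0.26 (SE, 95% interval -0.05 to 1.03, adjusted p = 0.4946, edgeR). The groups overlapped, and without VAT LAE replicate 1 the VAT change was 0.19. Cry1 at the late phase in VAT had an unadjusted p of 0.04753, with a log2 change of 0.22 ± 0.10 (SE, 95% interval 0.003 to 0.43, adjusted p = 0.4384, edgeR). In the same comparison 3 of 6 LAE rats lay above all LAC rats.

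The other late-phase changes with exercise were a log2 change of -0.29 (95% interval -0.70 to 0.11) for Per2, -0.02 (-0.30 to 0.26) for Per3 and -0.07 (-0.32 to 0.18) for Cry1 in SAT. In VAT they were 0.13 (-0.19 to 0.44) for Per2 and -0.17 (-0.46 to 0.11) for Per3. At the early phase the changes lay between -0.13 for Per2 and 0.07 for Cry1 in SAT, and between -0.17 for Per2 and 0.08 for Per3 in VAT. The 95% intervals of the early changes reached no farther than -0.53 and 0.53 in either depot. These results do not show that the levels were equal. Per2 in SAT at the late phase moved to a log2 change of -0.11 without the libraries that stood apart.

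Of all genes, 11.5% were called for late exercise in SAT with edgeR, and 0% for late exercise in VAT and for early exercise in either depot. Early exercise gave 131 genes in SAT and 345 in VAT with an unadjusted p under 0.05, while DESeq2 called 3 and 0 and limma voom 0 and 0. For late exercise in VAT 1557 genes had an unadjusted p under 0.05, DESeq2 called 43 and limma voom 200. The late SAT share rested on the fit and on single libraries. It was 1654 genes with all 4 SAT groups, 0 genes from the 2 compared groups alone, and 310 genes without the libraries that stood apart. With 1 library left out it ran from 257 genes without SAT LAE replicate 4 to 3067 genes without SAT LAE replicate 5.

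The mean ratio of Per1 to Per2 was higher with exercise in late SAT, in a contrast chosen after its values were seen. The p-values of these exercise contrasts are therefore descriptions, and no effect of exercise is concluded from them. Their adjustment was made together with the phase ratios, most of which reached the smallest p, so it weighed little. Neither gene alone passed in late SAT (adjusted p = 0.1641 for Per1 and 0.3165 for Per2, edgeR). In SAT the mean log2 ratio was -0.372 ± 0.49 in LAE and -1.08 ± 0.284 in LAC (SD, n = 6), a 1.63-fold higher ratio (exact permutation p = 0.0173, adjusted 0.0231). The LAE libraries reached from -0.963 to 0.207 and the LAC libraries from -1.48 to -0.769, so that 4 of 6 LAE libraries lay above all LAC libraries. Without SAT LAE replicates 4 and 6 the log2 difference was 0.50 (exact permutation p = 0.0667). In late VAT the difference was 0.26 (exact permutation p = 0.442, adjusted 0.461), and at the early phase it was 0.08 in SAT and 0.18 in VAT (exact permutation p = 0.621 and 0.258, adjusted 0.621 and 0.295). The groups overlapped in each case.

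Whether exercise altered the phase change of a member was tested as an interaction. Here too the hours of exercise and of sampling changed together, and their parts cannot be told apart. No member passed, the log2 interaction being 0.44 ± 0.28 for Per1, -0.16 ± 0.28 for Per2, 0.06 ± 0.19 for Per3 and -0.13 ± 0.17 for Cry1 in SAT. In VAT it was 0.47 ± 0.36, 0.29 ± 0.21, -0.25 ± 0.19 and 0.17 ± 0.15 for Per1, Per2, Per3 and Cry1 (SE, adjusted p from 0.4119 to 0.8922 in SAT and 0.8267 to 0.8728 in VAT, edgeR). Of all genes 0% were called in either depot with edgeR, while 2411 genes (SAT) and 975 (VAT) had an unadjusted p under 0.05. DESeq2 called 184 and 2, and limma voom 1 and 0.

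Each Per gene was among the genes most like the others. Over the 24 libraries of a depot, and taking the lower r of the 2 depots, Per3 was the gene most like Per2 of 13754 compared (r = 0.962 in SAT and 0.955 in VAT), and Per3 and Per2 ranked 6 and 9 for Per1. Libraries of both phases enter these r, those that stood apart included, so the difference between phases is part of each of them. The gene most like Per3 was ENSRNOG00000019383 (r = 0.99 in both depots), with means of 35.4 CPM in SAT LAE, 32 in SAT LAC, 241 in SAT EAE and 234 in SAT EAC. The gene most opposite to Per3 was ENSRNOG00000013408 (r = -0.979 in SAT and -0.991 in VAT), with 55.2, 57.9, 1.64 and 1.93 CPM in the same groups. Cry1 had looser matches. The gene most like it was ENSRNOG00000011271 (r = 0.698 in SAT and 0.795 in VAT) and the most opposite was ENSRNOG00000008637 (r = -0.753 and -0.866), while the r of Cry1 and Per3 was -0.53 in SAT and -0.894 in VAT. No symbol is paired with these IDs in the sources used here.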

How the data were processed

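The deposited table holds estimated counts per Ensembl gene, as whole numbers, for 48 libraries. The submitters' processing notes list Salmon 1.4.0 and build rn6, and no annotation release. Per the labels' protocols, reads were 50-nt single-end and RNA integrity numbers exceeded 9. The members, gene lists, alternatives and tests were chosen with earlier results of these data known. Symbols of the 4 members came with their IDs; 0 IDs matched the RefSeq table of rat genes, so the planned lists of other clock genes and of cell type markers were not analysed here.

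Counts, rounded as a safeguard, went into edgeR's quasi-likelihood test (version 4.0.16, R 4.3.3) after filterByExpr and TMM scaling, with Benjamini-Hochberg adjustment over all genes. The 4 groups of a depot were fitted together (14372 genes in SAT, 13883 in VAT), and all 8 groups for depot contrasts (14693). SEs were derived from each log2 change and its F statistic. CPM use TMM library sizes; log2 CPM for correlations used a prior count of 2. Libraries that stood apart had a median rank correlation with their depot more than 5 median absolute deviations under the usual value. The fits were tested on simulated counts.

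Replicates are separate rats per the labels. Pairs within a group differed beyond sampling noise (chi-square per degree of freedom 8.15 or more). Equal numbers were taken to pair SAT and VAT of a rat, since the labels' protocols describe 6 rats a group with both depots. The labels do not state it. Deviations of such pairs over all genes correlated at a median of 0.139 (-0.103 to 0.246). Values for SAT and VAT libraries of unequal number are not given, so this does not test the pairing. Within a depot equal numbers name different rats. Named genes were the 4 members and, without symbols, the closest and the most opposite gene to Per3 and to Cry1. As alternatives, the tests were repeated with DESeq2 (1.42.0; its size factors, and its Wald test), limma voom (3.58.1), almost no filter (1 count), the compared groups alone, a replicate block, and libraries left out. Ratios of Per3 to Per1 and to Per2, the exercise contrasts of Per1 to Per2, and correlations without 2 rats were added after seeing the data.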

Additional observations from a re-analysis of the deposited data

Results flagged for a closer look

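The late against early change of Cry1 differed between VAT and SAT by a test of the difference itself, with a log2 value of 0.44 (VAT minus SAT, edgeR adjusted p = 0.01319). The difference held its sign and stayed past the threshold in each of 48 fits that left out 1 library, with values from 0.41 to 0.48. In none of 32 groups of 6 rats (4 genes in 8 groups) did a rat lie far enough from the others to be marked by Dixon's test, where chance alone marks about 1 in 20 groups.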

How the results depend on the processing

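All phase calls of Per1, Per2 and Per3, and of Cry1 in VAT, kept direction and threshold under each alternative and each left-out library. Cry1 in sedentary SAT passed with limma voom (0.43); leaving out 1 library gave 0.31 to 0.43. The depot difference passed with the rat as replicate block for Per1 (-0.18) and Cry1 (0.079); that of Per2 changed sign at -0.070 (limma voom), at -0.011 without the libraries that stood apart, and over left-out libraries (-0.015 to 0.065). The SAT interaction of exercise and phase changed sign for Per3 with limma voom (-0.014; left-out libraries -0.017 to 0.145) and for Per2 without the libraries that stood apart (0.021). With libraries left out, the change with early exercise spanned -0.134 to 0.027 (Per1, SAT), -0.057 to 0.109 (Per1, VAT) and -0.018 to 0.108 (Cry1, VAT), and with late exercise -0.096 to 0.065 (Per3, SAT). The Per1 to Per2 log2 ratio spanned -0.41 to -0.27 (SAT, sedentary), -0.80 to -0.45 (VAT, exercised) and -0.028 to 0.145 (SAT, early exercise), and with late exercise in SAT it was 0.50 without the libraries that stood apart. Correlations between depots moved to 0.897 (Per1) and 0.815 (Per2) without those rats, and to 0.474 (Per2) without the 2 rats farthest out. The cause was not tested. Within a depot, the replicate block (numbers name different rats; same-numbered pairs correlated at -0.305 to 0.282 in SAT) changed no call of a member (Per3 in sedentary SAT -3.37), and moved the count of all genes for late exercise in SAT to 385 against 1654. Counts of all genes over the alternatives ran from 362 to 2849 (SAT, sedentary), 383 to 3223 (SAT, exercised), 1363 to 2398 (VAT, sedentary), 2262 to 3835 (VAT, exercised), 0 to 2718 (late exercise, SAT; 257 to 3067 with 1 library left out), 0 to 200 (late exercise, VAT) and 480 to 1301 (depot and phase).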
